A study of Caenorhabditis elegans with 32 samples.

Results

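Autophagy is the route by which a cell wraps part of its cytoplasm in a double membrane, the autophagosome, and delivers it to the lysosome for breakdown. A kinase complex around UNC-51/ULK1 starts the process, a lipid kinase complex built on VPS-34 and BEC-1/Beclin 1 marks the forming membrane with PI3P, and 2 ubiquitin-like conjugation pathways attach LGG-1 and LGG-2, the worm members of the GABARAP and LC3 families, to that membrane. In C. elegans these genes act in muscle, intestine, neurons and embryo, and several of them are required for the long life of known longevity mutants. The autophagy genes described here were all rows of the gene table whose WormBase symbol begins with atg, epg, lgg or sqst followed by a number, together with bec-1, unc-51, vps-34, vps-15 and hlh-30. The rule used names only and found 32 of 46748 genes. One further symbol that meets the rule in the annotation, sqst-5, was not analysed here.

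All 16 libraries came from worms of strain WBM1339, which carry FLAG-tagged ribosomal subunits and were placed as synchronized L1 larvae on RNAi bacteria and collected as young adults. The 4 groups, of 4 biological replicates each, were Translating Ribosome Affinity Purification (TRAP) RNA on dimt-1 RNAi, TRAP RNA on control RNAi, which is the empty vector (EV), total RNA on dimt-1 RNAi and total RNA on EV. TRAP recovers the RNA bound to the tagged ribosomes, here with an anti-FLAG antibody, and the samples are labelled as muscle. DIMT-1 is the methyltransferase that modifies adenosines near the end of the 18S rRNA. The promoter that drives the tag and the tagged protein are not given in the sources used here. Because these are bulk samples, fewer cells of a type and less RNA per cell cannot be told apart.

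Total counts were 34794250 to 49782576 per library. The 14 body wall muscle markers were all higher in TRAP than in total RNA on both RNAi, with summed levels of 167610 to 242770 CPM (counts scaled to library size) in TRAP and 5132 to 6790 CPM in total RNA, and 9 of the 10 germline markers were lower. With scaling by library size only, 13 of the 14 muscle markers were called higher on each RNAi, and 1 was called lower on dimt-1 RNAi. On EV, summed neuron markers were at 218 to 278 CPM in TRAP and 180 to 199 CPM in total RNA. On dimt-1 RNAi the neuron ranges overlapped. On EV, pharyngeal muscle markers were at 48.9 to 82.4 and 104 to 122 CPM. Intestine markers there were at 11194 to 14870 and 17420 to 20383 CPM. Summed germline markers on EV were at 1520.5 to 2033 CPM in TRAP and 3570 to 3738 CPM in total RNA. For hypodermis markers on EV the levels were 4917 to 5281 and 5973 to 6608 CPM. The dimt-1 gene itself (E02H1.1) was at 16.6, 19.7, 24.2 and 15.1 CPM in total RNA on dimt-1 RNAi and at 22.8 to 25.8 CPM on EV, so the total RNA library labelled dimt-1 replicate 3 lay within the EV range and the other 3 below it. In TRAP the gene was at 16.02 to 33.9 CPM on dimt-1 RNAi and 10.8 to 23.3 CPM on EV, which overlap, so TRAP showed no fall of the gene. The TRAP library labelled dimt-1 replicate 3 also stood apart from the rest of its group, with 204 genes at 1 to 20 counts against 3248 to 3674 in the other 3, whereas the TRAP libraries on EV had 205 to 535. Member calls that change without replicate 3 are therefore given with and without it. The library was singled out after the data were seen, and leaving out a library that lies near EV can widen differences from EV. For CPM values the library sizes were adjusted with edgeR's TMM factors over all 16 libraries.

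The members differed widely in level. Per kilobase of exon, lgg-1 was the most abundant member in all 4 groups, at 1490 ± 459 CPM per kb in TRAP on dimt-1 RNAi and 1436 ± 177 CPM per kb in TRAP on EV, against 380 ± 29.9 CPM per kb in total RNA on dimt-1 RNAi and 420 ± 20.9 CPM per kb in total RNA on EV (SD, n = 4 each). The next 3 members per kilobase were lgg-2, lgg-3 (the worm ATG12) and atg-18 (a PI3P-binding WIPI protein) in every group, at 64.4 to 129 CPM per kb. Their order among themselves differed between groups. At the other end, sqst-4 had no count in any library. For counting error alone, that allows up to 3 counts per library. sqst-3 had 2 and 10 counts in EV replicates 1 and 3 of total RNA and none elsewhere. Both are p62-like genes, and they passed no filter on low counts. Of the members that the results turn on most, lgg-1 (WBGene00002980) lies on chromosome II at 6346960 to 6347719 and unc-51 (WBGene00006786) on chromosome V at 19995986 to 20004485, both on the minus strand. atg-9 (WBGene00020706) lies on chromosome V at 349385 to 359658 and epg-2 (WBGene00021468) on chromosome I at 2300086 to 2302813, both on the plus strand of WBcel235. The other 30 members entered every test except that of dimt-1 RNAi against EV in TRAP, where epg-5 was dropped and 29 remained.

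**Figure D1:**
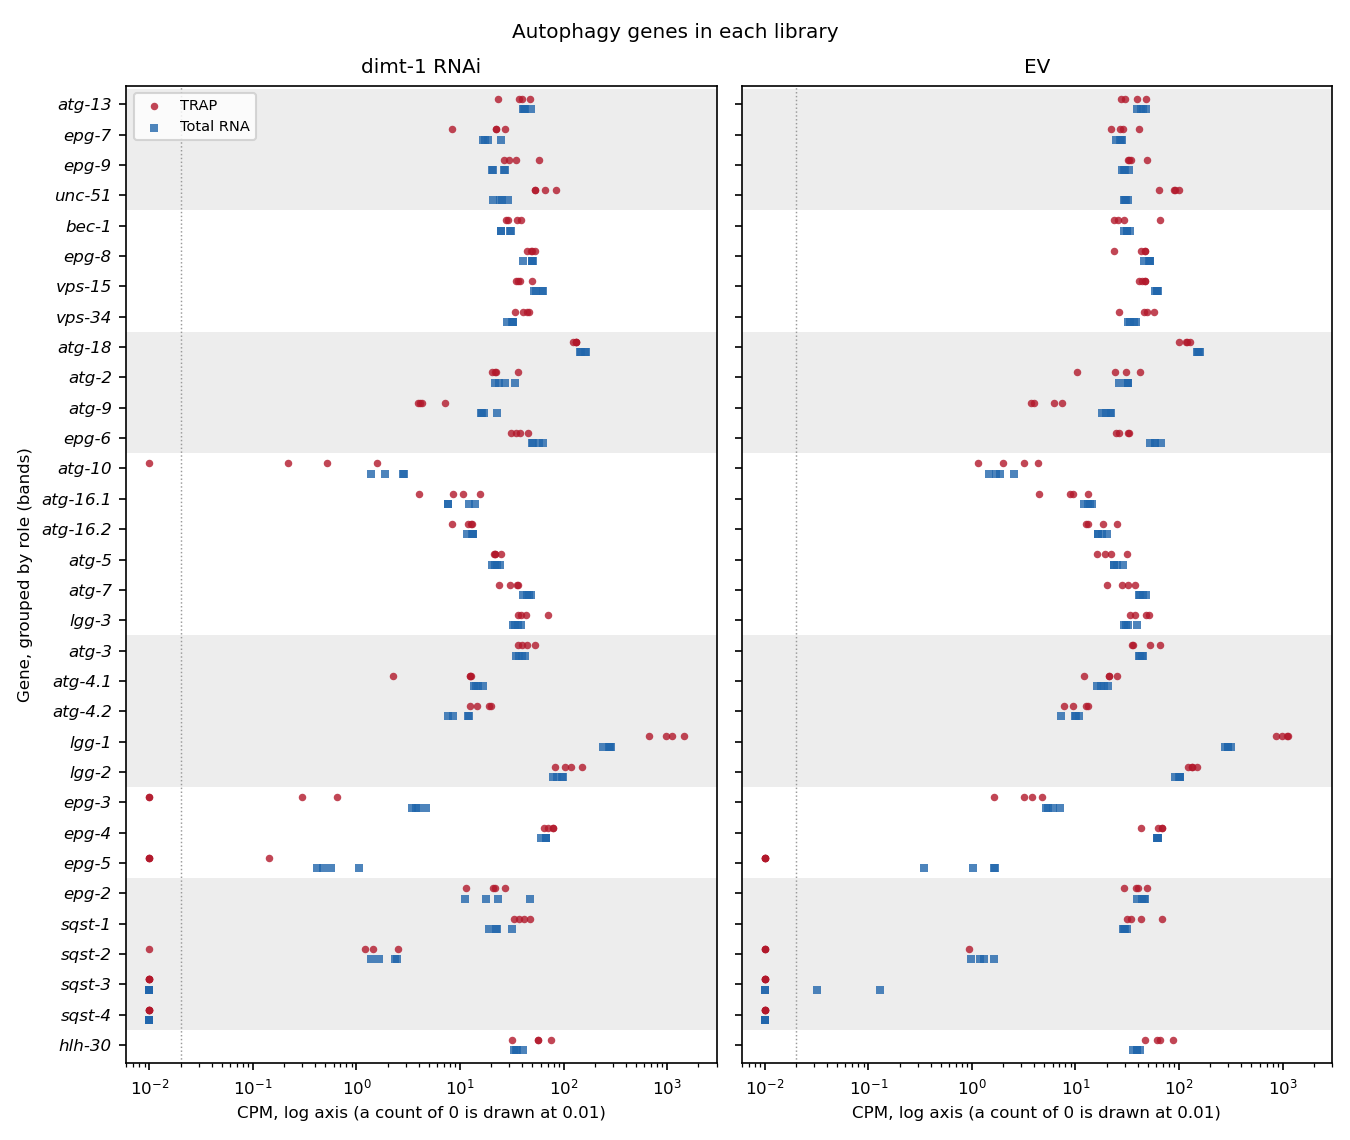
CPM of the 32 autophagy genes in each library on a log axis, with dimt-1 RNAi on the left and EV on the right; circles are the 4 TRAP libraries and squares the 4 total RNA libraries, and bands separate the roles. The circles of lgg-1 lie between 673 and 1458 CPM, above all of its squares (238 to 316 CPM), and those of atg-9 lie below its squares on both RNAi.

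The first question was which autophagy transcripts were more or less abundant on the tagged ribosomes than in the whole worm. On dimt-1 RNAi, 9 of the 30 members tested were called, 4 higher and 5 lower in TRAP (edgeR's quasi-likelihood test with Benjamini-Hochberg adjustment, adjusted p under 0.05). Of all 14785 genes tested, 28.2% were called (17.2% higher and 10.9% lower), so the share of members called, 30%, was near that of all genes. On EV, 10 of 30 members were called, 4 higher and 6 lower (33.3%), against 39.5% of 13778 genes (17.6% higher and 21.9% lower). The median absolute log2 difference of the members was 0.46 on dimt-1 RNAi and 0.39 on EV, smaller than the 0.58 and 0.76 of all genes. The TRAP and total RNA libraries did not overlap on the higher side for 5 of 30 members on dimt-1 RNAi (17.8% of all genes) and 5 on EV (18.1%), and on the lower side for 8 of 30 (26.7%) on dimt-1 RNAi (17.6% of all genes) and 8 on EV (27.9%). Without dimt-1 replicate 3, 12 members were called on dimt-1 RNAi, where 33.9% of genes were. The scaling sets the zero of these differences. With TMM the median gene lay at -0.14 on dimt-1 RNAi and -0.26 on EV, and with scaling by library size only at -1.56 and -1.68, where 28 and 27 members were called (59.9% and 61.4% of all genes) and lgg-1 was the only one called higher. Of the genes called on dimt-1 RNAi, 61.2% were higher in TRAP with TMM and 13.6% with library size only, and of those called on EV 44.6% and 14.3%.

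Of the ubiquitin-like proteins that coat the autophagosome, lgg-1 had the largest difference. It was at 1107, 1458, 673 and 980 CPM in TRAP on dimt-1 RNAi, against 272, 283, 284 and 238 CPM in total RNA on dimt-1 RNAi. On EV the levels were 1097, 1132, 857 and 980 CPM in TRAP, against 295, 280, 298 and 316 CPM in total RNA. No TRAP library overlapped a total RNA library. The log2 difference was 1.97 ± 0.21 (SE, adjusted p = 1.6e-05) on dimt-1 RNAi and 1.77 ± 0.10 (adjusted p = 1.6e-07) on EV, or 3.93-fold and 3.41-fold, by edgeR's quasi-likelihood test. It stayed higher, at 0.55 and 0.32, with library size only, and was called under all 11 alternatives on each RNAi. As a share of all reads on the 32 members, lgg-1 took 40.6 to 56.0% in TRAP on dimt-1 RNAi and 21.1 to 23.0% in total RNA on dimt-1 RNAi, and 45.9 to 50.7% in TRAP on EV and 21.2 to 23.1% in total RNA on EV.

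Its relative lgg-2 differed less. It was at 118, 149, 104 and 83.1 CPM in TRAP on dimt-1 RNAi, against 85.7, 97.1, 98.4 and 79.8 CPM in total RNA, and these overlapped (log2 difference 0.33 ± 0.16, adjusted p = 0.18). On EV it was at 133, 123, 134 and 148 CPM in TRAP, against 99.2, 102, 101 and 90.5 CPM in total RNA, with no overlap (0.45 ± 0.09, adjusted p = 0.0020 by edgeR), a direction that turned to -0.98 with library size only. The ratio of lgg-1 to lgg-2 counts within a library does not depend on the scaling. It was 9.36 ± 2.19 in TRAP on dimt-1 RNAi and 2.99 ± 0.13 in total RNA on dimt-1 RNAi, and 7.62 ± 1.34 in TRAP on EV and 3.04 ± 0.32 in total RNA on EV (SD, n = 4 each). Of the enzymes that process and attach both proteins, the protease gene atg-4.2 was higher in each TRAP library than in any total RNA library on dimt-1 RNAi without being called (0.71 ± 0.25, adjusted p = 0.053). It was called without replicate 3 (0.69 ± 0.24, adjusted p = 0.041) and with the replicate number as a block (0.71 ± 0.23, adjusted p = 0.048). The E2-like enzyme gene atg-3 and the second protease gene atg-4.1 were not called on either RNAi.

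In the initiation complex, only the kinase gene unc-51 was called with all libraries. It was at 66.8, 85.1, 53.0 and 53.5 CPM in TRAP on dimt-1 RNAi, against 20.6, 25.7, 28.9 and 24.4 CPM in total RNA. On EV the kinase gene was at 89.6, 99.4, 64.4 and 91.0 CPM in TRAP, against 31.9, 30.8, 29.4 and 29.997 CPM in total RNA. The lowest TRAP library was above the highest total RNA library on both RNAi. The log2 difference was 1.38 ± 0.17 (adjusted p = 7.5e-05) on dimt-1 RNAi and 1.49 ± 0.14 (adjusted p = 9.3e-06) on EV by edgeR. It was called under all 10 alternatives that kept a scaling factor on each RNAi, whereas with library size only it was at -0.04 and 0.04 and not called. Its partner atg-13 was not called (-0.23 ± 0.19 and -0.28 ± 0.18), so that the ratio of unc-51 to atg-13 counts, free of scaling, was 1.81 ± 0.36 in TRAP and 0.578 ± 0.094 in total RNA on dimt-1 RNAi, and 2.46 ± 0.61 in TRAP and 0.699 ± 0.068 in total RNA on EV. The other subunits epg-9 (the ATG101 homolog) and epg-7 (a scaffold protein related to FIP200 and ATG11) were not called, at 0.65 ± 0.24 and 0.05 ± 0.31 on dimt-1 RNAi and 0.31 ± 0.16 and 0.15 ± 0.19 on EV. On dimt-1 RNAi, epg-7 was at 0.44 ± 0.16 and called higher without replicate 3 (adjusted p = 0.047), and epg-9 was called higher with the replicate number as a block (0.59 ± 0.16, adjusted p = 0.024).

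**Figure D2:**
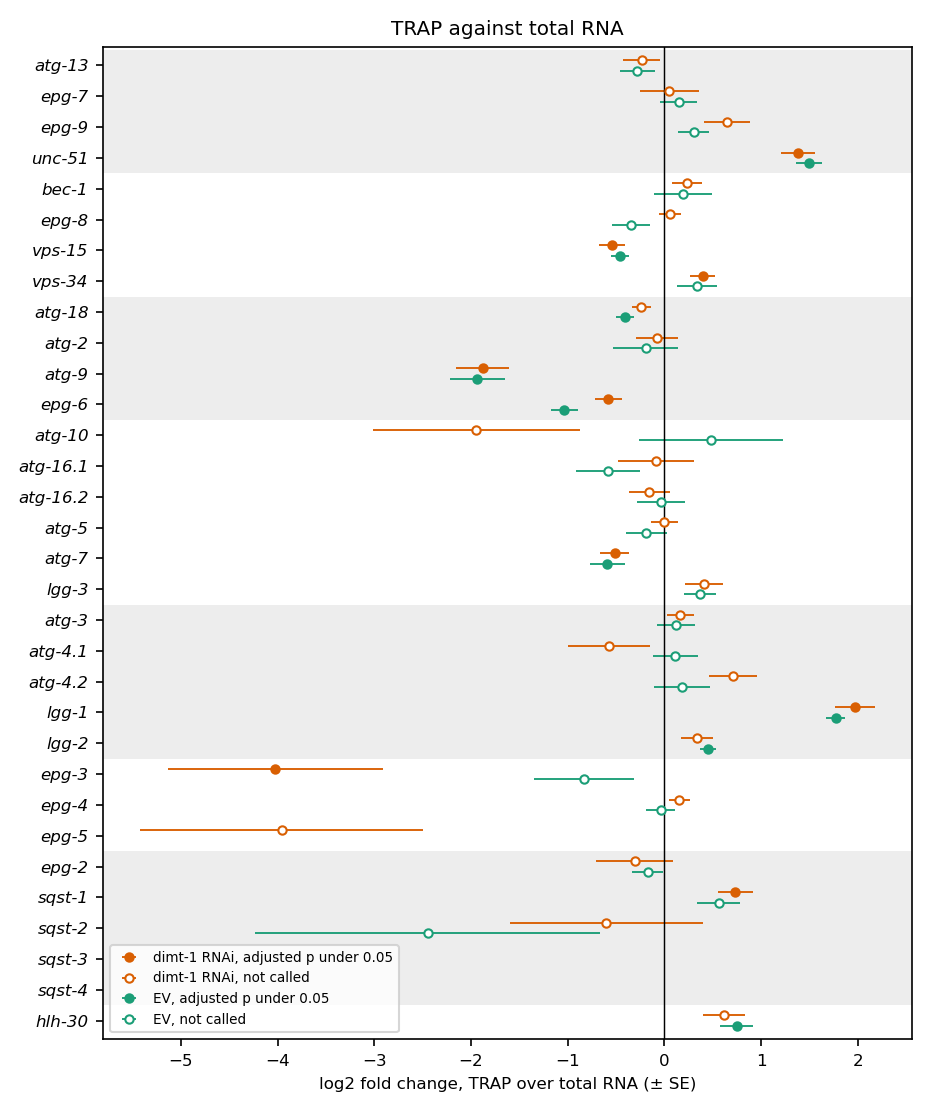
Log2 fold change of TRAP over total RNA for each member tested, with its SE (n = 4 libraries per group), for dimt-1 RNAi (upper point of each pair) and EV (lower point); filled symbols have an adjusted p under 0.05. lgg-1 and unc-51 stand to the right on both RNAi and atg-9 and epg-6 to the left, and epg-5 on EV is left out because all 4 TRAP libraries were at 0.

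In the lipid kinase complex, only vps-15 was called on both RNAi. The regulatory subunit gene vps-15 was at 36.1, 37.9, 49.2 and 34.9 CPM in TRAP on dimt-1 RNAi, against 53.7, 62.2, 63.3 and 51.6 CPM in total RNA. On EV vps-15 was at 46.7, 46.6, 41.02 and 43.6 CPM in TRAP, against 59.1, 61.5, 62.5 and 61.1 CPM in total RNA. The groups did not overlap on either RNAi. It was lower by edgeR at -0.54 ± 0.14 (adjusted p = 0.011) and -0.46 ± 0.09 (adjusted p = 0.0024), and was not called on dimt-1 RNAi without replicate 2 (adjusted p = 0.096). The catalytic subunit gene vps-34 was at 34.2, 43.9, 40.96 and 46.3 CPM in TRAP on dimt-1 RNAi, against 32.4, 32.1, 32.8 and 28.7 CPM in total RNA (0.40 ± 0.13, adjusted p = 0.040). That call was kept in 3 of 11 alternatives, was lost without replicate 1, 2 or 4 (adjusted p = 0.054, 0.17 and 0.25) and with the replicate number as a block (adjusted p = 0.069), and turned to -1.04 with library size only. On EV vps-34 was not called (0.34 ± 0.21). The ratio of vps-34 to vps-15 counts was 1.07 ± 0.22 in TRAP and 0.548 ± 0.042 in total RNA on dimt-1 RNAi, and 0.992 ± 0.25 in TRAP and 0.576 ± 0.039 in total RNA on EV.

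Neither bec-1, the Beclin 1 gene, nor epg-8, which encodes the ATG14-like subunit, was called. bec-1 was at 29.2, 38.5, 27.9 and 35.3 CPM in TRAP on dimt-1 RNAi, against 24.9, 31.2, 30.6 and 24.8 CPM in total RNA. On EV it was at 29.6, 65.8, 23.5 and 25.5 CPM in TRAP, against 31.1, 31.4, 33.5 and 29.5 CPM in total RNA. Replicate 2 was the only TRAP library on EV above the total RNA libraries, and without it the log2 difference moved to -0.27, against 0.19 with it.

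**Figure D3:**
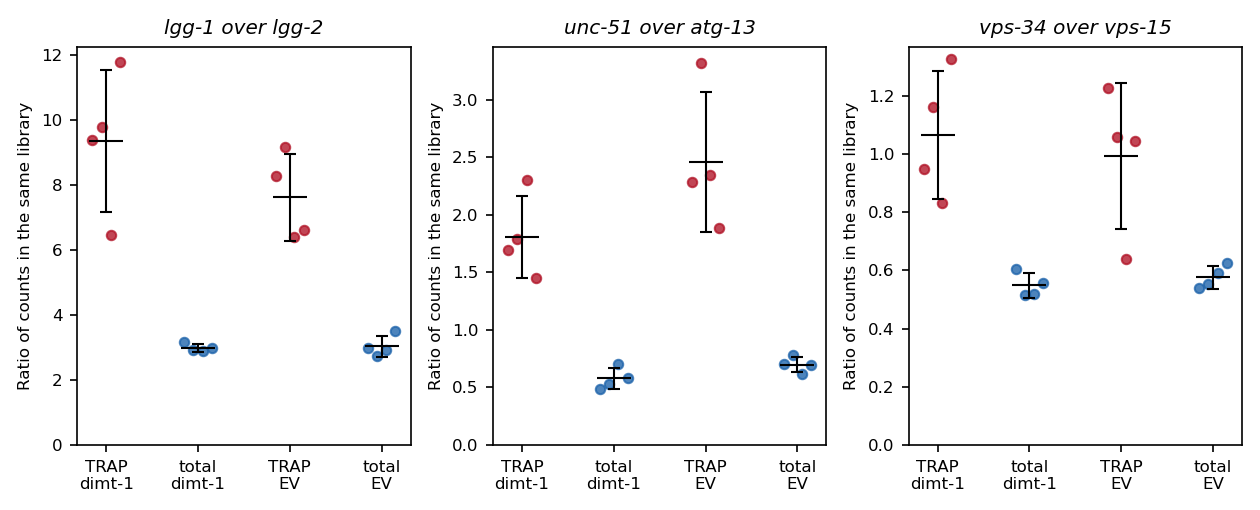
Ratio of the counts of 2 members in the same library, for 3 pairs, in the 4 TRAP and 4 total RNA libraries of each RNAi; points are libraries, and the bar and whiskers are the mean and SD (n = 4). In all 3 pairs every TRAP library lies above every total RNA library of the same RNAi; the pairs were chosen after their values were seen and the ratios were not tested.

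The genes of membrane delivery and of the proteins that read PI3P numbered 4, of which 2 were called lower in TRAP on dimt-1 RNAi (10.9% of all genes) and 3 on EV (21.9% of all genes), and none higher. atg-9, which encodes a membrane-spanning protein of the core machinery that travels on vesicles, was at 4.29, 3.94, 7.19 and 4.15 CPM in TRAP on dimt-1 RNAi, against 16.15, 23.0, 17.2 and 15.8 CPM in total RNA. On EV atg-9 was at 7.48, 3.68, 6.15 and 4.01 CPM in TRAP, against 17.9, 19.7, 22.1 and 21.7 CPM in total RNA. Each TRAP library was below each total RNA library. The log2 difference was -1.88 ± 0.27 (adjusted p = 0.00023) and -1.93 ± 0.28 (adjusted p = 0.00038) by edgeR, and atg-9 was called lower under all 11 alternatives on each RNAi.

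The PI3P-binding protein gene epg-6 was at 34.6, 45.0, 30.9 and 37.8 CPM in TRAP on dimt-1 RNAi, against 51.1, 63.6, 57.7 and 49.7 CPM in total RNA, and at 33.05, 26.1, 24.5 and 32.1 CPM in TRAP on EV, against 58.8, 52.6, 66.7 and 58.6 CPM in total RNA. The difference was -0.58 ± 0.14 (adjusted p = 0.0088, and 0.072 without replicate 1) on dimt-1 RNAi and -1.03 ± 0.14 (adjusted p = 0.00017) on EV by edgeR. atg-18 was called lower on EV (-0.41 ± 0.09, adjusted p = 0.0048) and not on dimt-1 RNAi (-0.24 ± 0.10, adjusted p = 0.092), although its TRAP and total RNA libraries did not overlap on either RNAi. atg-2, the lipid transfer protein gene, was not called (-0.08 ± 0.22 and -0.20 ± 0.34).

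Among the 6 genes of the LGG-3 conjugation pathway, atg-7, the E1-like enzyme shared by both pathways, was the only one called. It was at 36.4, 35.1, 23.7 and 30.5 CPM in TRAP on dimt-1 RNAi, against 46.8, 48.6, 44.4 and 40.3 CPM in total RNA, and at 27.9, 31.9, 20.2 and 37.3 CPM in TRAP on EV, against 48.4, 41.8, 45.1 and 41.3 CPM in total RNA. The groups did not overlap, and the differences were -0.52 ± 0.15 (adjusted p = 0.023) and -0.59 ± 0.18 (adjusted p = 0.024) by edgeR. The call was lost on dimt-1 RNAi without replicate 1, 2 or 4 (adjusted p = 0.085, 0.084 and 0.076) and on EV without replicate 1 or 3 (adjusted p = 0.13 and 0.084), with DESeq2 (adjusted p = 0.063) or with its size factors (adjusted p = 0.070). lgg-3, atg-5, atg-10, atg-16.1 and atg-16.2 were not called on either RNAi, at -1.95 to 0.41 on dimt-1 RNAi and -0.58 to 0.48 on EV.

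Of the genes with no yeast counterpart, epg-3 (VMP1), epg-4 (EI24) and epg-5, whose products act in autophagosome formation and maturation, epg-4 was not called (0.16 ± 0.11 and -0.04 ± 0.15). epg-3 was at 0.648, 0.295, 0 and 0 CPM in TRAP on dimt-1 RNAi, from 18, 8, 0 and 0 counts, against 3.46, 4.70, 3.96 and 3.77 CPM in total RNA. It was called lower there (-4.03 ± 1.11, adjusted p = 0.018), but not without replicate 2 or 4 (adjusted p = 0.13 and 0.076). On EV epg-3 was at 4.79, 3.18, 3.84 and 1.62 CPM in TRAP, against 7.12, 5.39, 6.12 and 5.18 CPM in total RNA (-0.83 ± 0.52, adjusted p = 0.26). epg-5 had 4, 0, 0 and 0 counts in TRAP on dimt-1 RNAi, against 40, 44, 73 and 28 counts in total RNA, and no count in any TRAP library on EV, against 22, 60, 126 and 107 counts in total RNA. Taken at a floor of 3 counts per library, epg-5 was 9.56-fold lower in TRAP on EV (edgeR's adjusted p = 0.0036, and 0.085 with the replicate number as a block). The floor covers counting error only, so 9.56-fold is not a firm lower bound. Few genes had low counts in the TRAP libraries on EV and in the TRAP library labelled dimt-1 replicate 3, as given above, and the part of this in the zeros was not tested.

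Among the cargo receptor genes, sqst-1, the p62 homolog, was at 33.0, 47.1, 41.2 and 37.1 CPM in TRAP on dimt-1 RNAi, against 19.2, 22.04, 31.8 and 22.6 CPM in total RNA, and at 34.6, 31.7, 42.5 and 67.8 CPM in TRAP on EV, against 31.3, 30.03, 29.7 and 28.6 CPM in total RNA. The TRAP libraries were above the total RNA libraries on both RNAi. The difference was called on dimt-1 RNAi (0.73 ± 0.18, adjusted p = 0.0092, and 0.098 and 0.059 without replicate 2 or 4) and not on EV (0.56 ± 0.22, adjusted p = 0.075) by edgeR, and it turned to -0.69 and -0.85 with library size only. epg-2, a nematode adaptor for the clearance of PGL granules in embryos, was not called, at -0.31 ± 0.40 and -0.17 ± 0.16. sqst-2 was near the limit of counting, with 40, 33, 0 and 57 counts in TRAP on dimt-1 RNAi and 0, 19, 0 and 0 on EV, and was not called.

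hlh-30 encodes the TFEB homolog, a helix-loop-helix factor that switches on autophagy and lysosome genes. It was at 56.4, 76.2, 31.5 and 56.6 CPM in TRAP on dimt-1 RNAi, against 34.8, 33.0, 35.6 and 40.99 CPM in total RNA, and of the TRAP libraries only the one labelled replicate 3 was not above the total RNA range. It was not called with all 4 replicates (0.62 ± 0.22, adjusted p = 0.056) and was called without replicate 3 (0.80, adjusted p = 0.0010). On EV it was at 61.5, 47.3, 65.8 and 87.2 CPM in TRAP, against 39.3, 42.1, 38.995 and 35.6 CPM in total RNA, with no overlap (0.75 ± 0.17, adjusted p = 0.0053 by edgeR). These directions turned to -0.81 and -0.67 with library size only.

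The E-box CACGTG, which reads the same on both strands, is the letter motif of the family to which HLH-30 belongs. The window of 250 bases before to 50 bases after the annotated start held it in 4 of the 32 members (12.5%) and in 1162 of the 19973 coding genes (5.82%) in the WBcel235 reference. The 4 matches are shown, with the motif in capitals on the gene's strand, because they place the members that carry it beside their values. A match is a description and not a site, and since many worm transcripts are trans-spliced the annotated start may not be where transcription begins.
atg-9, chrV:349206-349235, plus strand, motif at -167: ccacccgctgttCACGTGccccctccctcc
epg-7, chrX:7334560-7334589, plus strand, motif at -142: gcctctgtacgtCACGTGatttgcagccgc
epg-5, chrII:6609567-6609596, minus strand, motif at -219: attttccctcttCACGTGctgtgttcagtt
sqst-3, chrV:19230590-19230619, plus strand, motif at -180: acgaatttcggtCACGTGgtaatactccga
Of these, atg-9 was lower in TRAP on both RNAi, epg-7 was not called, epg-5 was at or near 0 in TRAP, and sqst-3 was at 0 in 14 of the 16 libraries.

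Genes that act on the pathway from outside were taken from lists, whose counts stand beside the 17.2% of all genes called higher and 10.9% lower on dimt-1 RNAi and the 17.6% higher and 21.9% lower on EV. Of 12 TOR and AMPK regulators, 2 were higher and 5 lower in TRAP on dimt-1 RNAi, and 2 higher and 4 lower on EV. The AMPK subunit genes aakb-1 (3.13 ± 0.16 and 2.65 ± 0.16) and aak-2 (0.88 ± 0.17 and 0.71 ± 0.12) were the higher ones, of which aakb-1 stayed higher with library size only (1.70 and 1.21) and aak-2 turned to -0.54 and -0.71. The S6 kinase gene rsks-1 (-1.99 ± 0.27 and -1.96 ± 0.38) and the TORC1 subunit gene daf-15 (-1.17 ± 0.13 and -1.30 ± 0.24) were among the lower ones. Of 12 genes of autophagosome-lysosome fusion, including epg-5, 1 was higher and 4 were lower on dimt-1 RNAi, and none was higher and 5 were lower on EV. Of 13 lysosome genes in the table, 12 were tested, 2 of them higher and 3 lower on dimt-1 RNAi and 4 higher and 4 lower on EV, among them the cathepsin D-like protease gene asp-4 (2.23 ± 0.18 and 2.35 ± 0.13), which stayed higher with library size only at 0.82 and 0.90. Of 6 genes of mitophagy and allophagy, 2 were higher and none lower on dimt-1 RNAi, and 2 higher and 1 lower on EV. Of 6 PI3P kinase and phosphatase genes, 1 was higher and 1 lower on dimt-1 RNAi, and none higher and 3 lower on EV. Of 7 transcription factor genes, 2 were higher and 1 lower on dimt-1 RNAi and 1 higher and 1 lower on EV, and mxl-3, whose product acts against HLH-30, was higher on both (2.12 ± 0.16 and 2.25 ± 0.10, and 0.69 and 0.80 with library size only).

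The second question was whether dimt-1 knock-down changed the autophagy transcripts. In total RNA, none of the 30 members tested passed the test, as was the case for all 15441 genes (0.0% called by edgeR). At an unadjusted p under 0.05 there were 8 members (26.7%) and 2504 genes (16.22%). DESeq2 called 2 members (epg-7 and atg-16.2) and 4.19% of genes, and limma with quality weights called 7 members and 10.4% of genes. The members lay slightly to the lower side, with 22 of 30 below 0 against 47.6% of all genes and a median log2 difference of -0.12 against 0.01. The largest differences on the lower side were epg-5 (-0.87 ± 0.54, adjusted p = 0.45), epg-2 (-0.80 ± 0.31, adjusted p = 0.23), epg-3 (-0.55 ± 0.18, adjusted p = 0.18), atg-16.2 (-0.43 ± 0.11, adjusted p = 0.11) and epg-7 (-0.42 ± 0.11, adjusted p = 0.12). For 4 members (13.3%) each dimt-1 library was below each EV library, namely atg-16.2, epg-3, epg-9 and unc-51, against 3.81% of all genes, and for no member was each above (2.8% of all genes).

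With dimt-1 replicate 3 left out, 7 of 30 members (23.3%) were called, all lower, where 15% of 15845 genes were called (6.99% higher and 8.03% lower). That library was picked after the data were seen, so these calls are a description, and with all libraries no member was called. epg-2 was at 11.2, 23.3, 47.6 and 18.0 CPM in total RNA on dimt-1 RNAi, against 45.8, 44.3, 47.4 and 39.5 CPM on EV. The value of 47.6 CPM was that of replicate 3, which lay above all EV libraries, while the other 3 lay below them. Without it, epg-2 fell by 59.2% (log2 difference -1.29 ± 0.16, adjusted p = 5.4e-05 by edgeR). epg-2 shares 78 of its exon bases (3.42%) with tpxl-1 on the other strand, and the strand setting of the counting is not given in the sources used here.

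The initiation complex gave 3 of the 7. epg-7 was at 17.5, 18.8, 24.8 and 16.6 CPM on dimt-1 RNAi, against 26.7, 24.4, 27.5 and 28.1 CPM on EV (-0.55 ± 0.09, adjusted p = 0.00086 without replicate 3). epg-9 was at 20.3, 27.1, 26.8 and 20.8 CPM on dimt-1 RNAi, against 32.6, 27.9, 30.2 and 29.2 CPM on EV (-0.35 ± 0.10, adjusted p = 0.030). unc-51 was at 20.6, 25.7, 28.9 and 24.4 CPM on dimt-1 RNAi, against 31.9, 30.8, 29.4 and 29.997 CPM on EV (-0.32 ± 0.09, adjusted p = 0.025). Replicate 3 was the dimt-1 library nearest to EV for epg-7 and unc-51, and not for epg-9. The fourth subunit, atg-13, was not called.

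The others were sqst-1 and both ATG16 homologs, which anchor the LGG-3 conjugate to the membrane. sqst-1 was at 19.2, 22.04, 31.8 and 22.6 CPM on dimt-1 RNAi, against 31.3, 30.03, 29.7 and 28.6 CPM on EV (-0.44 ± 0.09, adjusted p = 0.0032 without replicate 3). atg-16.1 was at 7.69, 12.2, 13.8 and 7.62 CPM on dimt-1 RNAi, against 12.2, 13.2, 14.4 and 13.9 CPM on EV (-0.50 ± 0.16, adjusted p = 0.043). atg-16.2 was at 11.7, 13.4, 13.5 and 13.1 CPM on dimt-1 RNAi, against 20.3, 16.6, 17.9 and 16.7 CPM on EV (-0.43 ± 0.12, adjusted p = 0.020). For atg-16.2 replicate 3 did not stand apart, and its log2 difference was -0.43 with that library and without it. lgg-1, lgg-2, bec-1 and hlh-30 were not called with or without replicate 3.

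**Figure D4:**
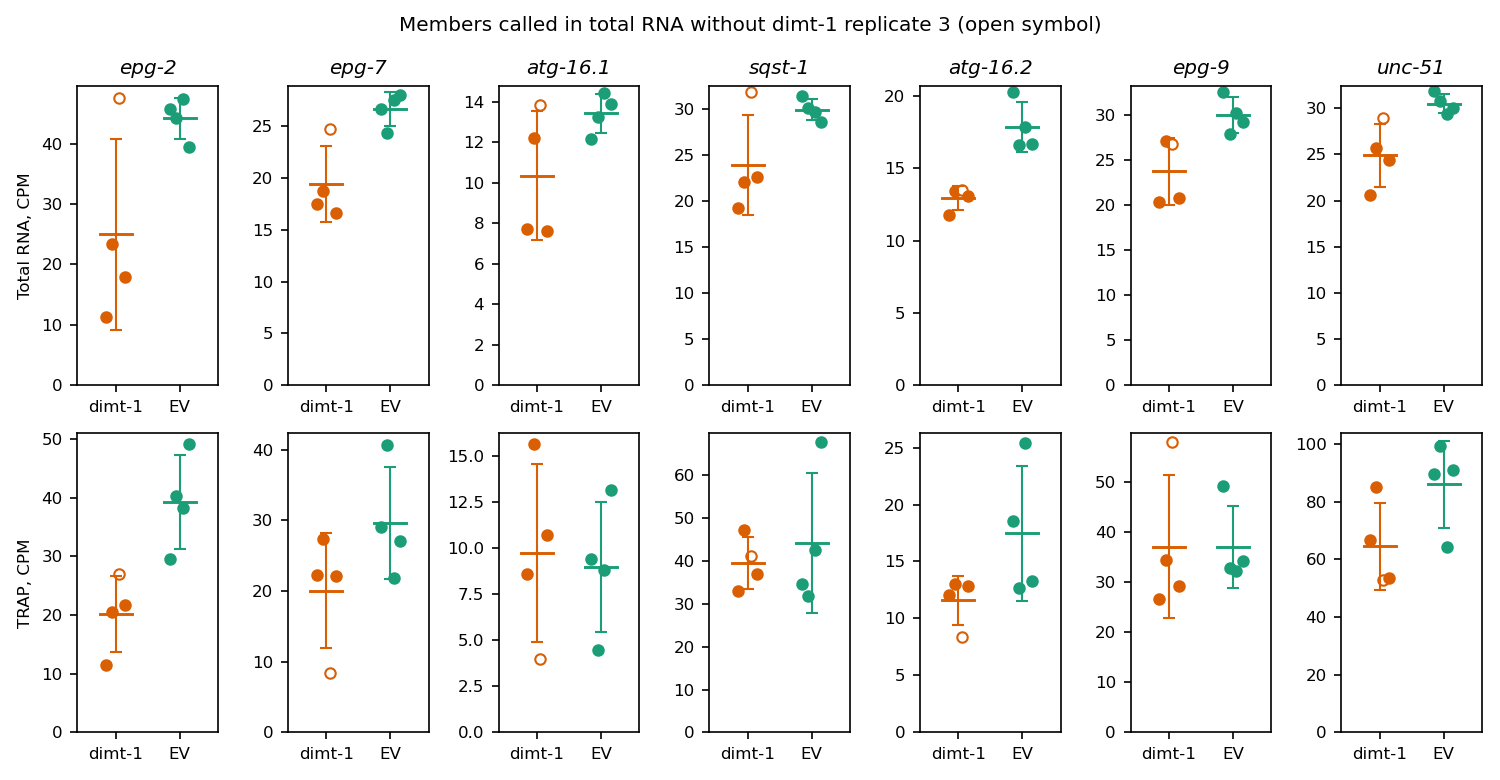
CPM in each library on dimt-1 RNAi (left) and EV (right) for the 7 members called in total RNA without dimt-1 replicate 3, in total RNA (upper row) and TRAP (lower row); the bar and whiskers are the mean and SD of all 4 libraries, and the open symbol is the library labelled dimt-1 replicate 3. In total RNA the open symbol lies within or above the EV points for epg-2, epg-7, atg-16.1 and sqst-1, and in TRAP the groups overlap for 6 of the 7 members and not for epg-2.

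Other transcripts of the whole worm moved in the same libraries. Without replicate 3, 7 of 8 intestine markers fell, and 8 of 9 sperm markers, all 4 pharyngeal muscle markers and 5 of 14 body wall muscle markers rose in total RNA, whereas 0 of 10 germline markers rose and 1 fell. With all libraries, the summed sperm markers were at 36.4 to 160 CPM on dimt-1 RNAi and 33.7 to 40.6 CPM on EV, with at most 1 and 2 sperm markers at 0. The summed intestine markers were at 11593 to 19440 CPM on dimt-1 RNAi and 17420 to 20383 CPM on EV. Replicate 3 gave the 36.4 and 19440 CPM, within the EV ranges. The other dimt-1 libraries were at 80.5 to 160 and 11593 to 14569 CPM, outside them. The part of these markers in the autophagy values was not tested. None of the 6 pathway lists had a call in total RNA with all libraries. Without replicate 3, 5 of 13 lysosome genes, 2 of 12 fusion genes, 1 of 12 TOR and AMPK regulators, 1 of 6 mitophagy and allophagy genes and none of 6 PI3P kinase and phosphatase genes were lower and none of them higher, and of 7 transcription factor genes 1 was higher and 2 were lower, where 6.99% of all genes were higher and 8.03% lower.

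In TRAP, none of the 29 members tested passed the test on dimt-1 RNAi against EV, nor did any of 12164 genes (0.0% called by edgeR). At an unadjusted p under 0.05 there were 3 members (epg-2, atg-4.1 and unc-51; 10.3%) and 976 genes (8.02%). DESeq2 called no member and 1.35% of genes, limma with quality weights 1 member and 1.05%, and edgeR without a filter 1 member and 0.988%, the member being epg-2 in both. epg-3 (-3.82 ± 1.79) and atg-10 (-2.21 ± 1.68), both with libraries at 0 on dimt-1 RNAi, had the largest differences on the lower side. On the higher side the largest were sqst-2 (2.43), with libraries at 0 on both RNAi, and atg-4.2 (0.59). In all, 10 members were above 0 and 19 below, where 45.5% of all genes were below. With library size only, 15 members were above 0 and 14 below, and 36.3% of all genes were below. atg-4.1 was at 12.4, 12.6, 2.28 and 12.5 CPM on dimt-1 RNAi, against 21.01, 25.2, 11.96 and 21.1 CPM on EV, and its log2 difference was -1.01 ± 0.45, or -0.67 ± 0.30 without replicate 3. epg-2 was at 11.4, 20.6, 27.03 and 21.7 CPM on dimt-1 RNAi, against 29.5, 40.3, 38.2 and 49.1 CPM on EV. The groups did not overlap, as was the case for 2 of 29 members on the lower side (6.9%; epg-2 and epg-3) and 2.04% of all genes, while none of 29 did so on the higher side (4.85% of all genes). The log2 difference of epg-2 was -0.98 ± 0.27 (adjusted p = 0.29) and -1.15 ± 0.28 without replicate 3 (adjusted p = 0.095), where no member and 0.374% of genes were called. unc-51 was at -0.43 ± 0.19 (adjusted p = 0.59), hlh-30 at -0.27 ± 0.25, lgg-2 at -0.26 ± 0.18, sqst-1 at -0.18 ± 0.24, bec-1 at -0.15 ± 0.30 and lgg-1 at 0.03 ± 0.20. As given above, the TRAP libraries on EV had fewer low-count genes than those of dimt-1 RNAi other than replicate 3. The part of this in the TRAP differences was not tested.

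Translation efficiency, the TRAP level relative to the total RNA level, was compared between dimt-1 RNAi and EV with an interaction term over all 16 libraries. None of 30 members and none of 15897 genes passed the test (0.0% called by edgeR), with 2 members (6.67%) and 2183 genes (13.7%) at an unadjusted p under 0.05. DESeq2 called epg-3 and 2.08% of genes, and limma called none. Those 2 members were epg-3 (-3.20 ± 1.22, adjusted p = 0.24) and epg-6 (0.45 ± 0.20, adjusted p = 0.34). epg-5 (4.83) and atg-10 (-2.44) also differed widely, and both had TRAP libraries at 0. In all, 20 members were above 0 and 10 below, where 38.2% of all genes were below. The median was 0.05 for the members and 0.16 for all genes. With DESeq2, 12 members were above 0 and 18 below, and 48.5% of all genes were below. The part of the unlike numbers of low-count genes in TRAP in these values was not tested. For lgg-1 the difference in translation efficiency was 0.20 ± 0.23 and for unc-51 -0.12 ± 0.23. The calls made on only one RNAi in TRAP against total RNA, such as lgg-2, hlh-30 and atg-18 on EV and sqst-1 and vps-34 on dimt-1 RNAi, were therefore not shown to differ between the RNAi.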

How the data were processed

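The table that the authors deposited holds raw read counts of 46748 genes in the 16 muscle libraries, not normalized; 43693 genes were given a symbol, and 0 columns were left unused. The submitters' processing notes name STAR 2.7.2b. The study's methods give the build (WBcel235) for the germline libraries, which were not analysed here, and libraries were prepared with a stranded kit whose counting strand is not given in the sources used here. In each library 78.1 to 90.0% of the counts between 1 and 20 were even numbers, for which the reason was not tested, so a count need not be 1 independent fragment and floors cover counting error only. Of the members, 7 share exon bases with a coding gene on the other strand (3 to 134 bases, the most in atg-13), and reads there are uncertain.

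All genes were tested with edgeR 4.0.16 in R 4.3.3 (filterByExpr, TMM factors, quasi-likelihood test, Benjamini-Hochberg adjustment, threshold 0.05) on the libraries of each comparison, with an interaction for translation efficiency. The SE given with an edgeR difference was worked back from that test, as the absolute difference divided by the square root of its F statistic. It is least reliable for members with libraries at 0. Alternatives were DESeq2 1.42.0, its size factors, library size only, limma 3.58.1 voom with quality weights, a minimum of 10 counts, no filter, a replicate block, each replicate left out, and, added after the data were seen, dimt-1 replicate 3 and EV replicate 2 both left out. Of the fits with a replicate left out, the one without dimt-1 replicate 3 was given prominence after the data were seen. The fits were tested on simulated data with a log2 change of 2 planted in 200 well-counted genes. Of these, 83.5 to 100% were recovered, and 1.6 to 5.21% of the calls were wrong. The simulation does not cover smaller differences or low-count members. Replicates are biological by their labels, and p-values measure only the spread between these samples.

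The members and lists were chosen with earlier results of these data known. Values in every library are given for lgg-1, lgg-2, bec-1, unc-51, sqst-1 and hlh-30 and for up to 4 called members in each direction whose groups do not overlap. epg-2, epg-7, epg-9, atg-16.1, atg-16.2 and atg-18 were added, and library values of vps-34, epg-5, sqst-2 and atg-4.1 given, after values were seen. Of these, vps-34 on dimt-1 RNAi and epg-5 on EV also met the rule for called members. Sequences were read from the RefSeq WBcel235 genome at starts of the Ensembl annotation of that build.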

Additional observations from a re-analysis of the deposited data

Results flagged for a closer look

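Within groups of 4 libraries, the log2 levels of all 32 members were examined for 1 value far from the other 3, leaving out groups with no count. Of 120 combinations of member and group 13 were found. The usual rate of about 1 in 20 holds for independent normal values, so it is no yardstick here. A group with a count in only 1 library meets the rule by construction, as for epg-5 and sqst-2 below. In TRAP on dimt-1 RNAi, the library labelled replicate 3 was lowest for atg-4.1 (2.28 CPM) and highest for atg-2 (36.04 CPM) and atg-9 (7.19 CPM), and replicate 1 was highest for atg-5 (24.6 CPM) and for epg-5 (0.144 CPM), where it was the only library with a count. In TRAP on EV, epg-9 was highest in replicate 1 (49.3 CPM), epg-8 lowest in replicate 3 (23.5 CPM) and sqst-2 highest in replicate 2 (0.945 CPM), the only library with a count. In total RNA on dimt-1 RNAi, replicate 4 was lowest for epg-4 (59.999 CPM), epg-8 (40.3 CPM) and vps-34 (28.7 CPM). In total RNA on EV, atg-2 was lowest in replicate 1 (26.3 CPM) and epg-8 in replicate 2 (45.4 CPM).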

How the results depend on the processing

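Over 52 results for single members, 710 alternative values were computed, of which 615 kept direction and call, 32 gained and 22 lost the call and 41 changed sign. With library size only, TRAP against total RNA gave 8849 genes and 28 members called on dimt-1 RNAi (4162 and 9 with TMM) and 8459 and 27 on EV (5437 and 10), because the median of all genes moved as given above. There, on dimt-1 RNAi, unc-51 was at -0.038, bec-1 at -1.19, vps-34 at -1.04, lgg-2 at -1.09, sqst-1 at -0.69 and hlh-30 at -0.81, and on EV bec-1 was at -1.29 (0.19 with TMM and -0.080 with limma), lgg-2 at -0.98, sqst-1 at -0.85 and hlh-30 at -0.67. With each replicate left out in turn, 4 to 12 members were called on dimt-1 RNAi and bec-1 on EV ranged over -0.27 to 0.41. Without dimt-1 replicate 3 there were 12 members, where 33.9% of all genes were called. In dimt-1 RNAi against EV in total RNA, 647 genes and 2 members (epg-7 and atg-16.2) were called by DESeq2, 1601 and 7 by limma with quality weights, 346 genes without a filter, 1782 and 5 without dimt-1 replicate 3 and EV replicate 2, and 0 to 2379 genes and 0 to 7 members with each replicate left out. In TRAP, 164 genes were called by DESeq2, 128 by limma, 8 with at least 10 counts in every library, 177 without a filter, 33 with both libraries left out and 0 to 49 with each replicate left out; 1 member, epg-2, was called by limma and 1, also epg-2, without a filter. Near 0 there, lgg-1 was at -0.015 with DESeq2 and with its size factors and -0.16 to 0.21 with each replicate left out. epg-9 was at 0.10 with library size only and -0.31 to 0.15, bec-1 at 0.14 with limma, 0.34 with both left out and -0.30 to 0.28, atg-16.1 at -0.23 to 0.36 and sqst-1 at -0.33 to 0.12. For translation efficiency, 9 genes were called with library size only, 330 and 1 member (epg-3) by DESeq2, 215 and 1 member (sqst-2, higher) with both left out, and 0 to 46 genes with each replicate left out. bec-1 was at -0.12 with DESeq2 and its size factors, -0.078 with at least 10 counts and -0.16 to 0.49, unc-51 at 0.051 with limma, 0.12 with both left out and -0.28 to 0.047, and hlh-30 at -0.37 to 0.079. The cause of these differences was not tested. Where no share of all genes stands beside a member count here, the count is not read as a result about the members.

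Same-numbered TRAP and total RNA libraries correlated in their deviations at 0.03 to 0.26 on dimt-1 RNAi and -0.01 to 0.02 on EV, so the numbers were not taken as pairs, although on dimt-1 RNAi every TRAP library correlated best with the total RNA library of its own number. The study's methods take total RNA and TRAP from one supernatant in the germline experiment, and the labels of the muscle libraries do not say whether same-numbered libraries share one. With the replicate number as a block, 4211 of 14785 genes and 10 of 30 members were called in TRAP against total RNA on dimt-1 RNAi. On EV, 4679 of 13778 genes and 9 of 30 members were called with that block. With it, vps-34 and epg-5 lost their calls, and epg-9 and atg-4.2 on dimt-1 RNAi gained one. The block gave 1 gene and no member in total RNA, and 0 genes in TRAP, where lgg-1 was at -0.010. For translation efficiency, same-numbered TRAP and total RNA libraries of one RNAi formed the block, and no member was called. In that fit epg-3 was at -4.23 ± 1.61 (adjusted p = 0.56) and epg-6 at 0.45 ± 0.21 (adjusted p = 0.59) by edgeR. In TRAP, epg-3, epg-5, atg-10 and sqst-2 had libraries at 0 counts, and the largest standard errors in TRAP against total RNA.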
